A study of Mus musculus with 13 samples.

Results

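The comparison described here is HDAC3 loss in macrophages treated with IL-4, measured as 3 arrays of HDAC3 KO cells against 3 arrays of control cells. Its members are all genes with a usable probe, whatever their difference between the groups. They number 20906, the same as in the whole series, on 6 of the series' 13 arrays. A probe was usable if it was well above background on each array of 1 group or more. A gene could therefore pass this filter only through the group where it was high, and without the filter 28257 genes were tested. The study grew macrophages from mouse bone marrow and asked with single-colour Agilent whole-genome arrays what HDAC3 loss does to gene expression at rest and under IL-4. Its other 7 arrays hold cells of both genotypes given vehicle (4 control, 3 KO) and are used below for comparison. They also enter the spread behind the p-values, the probe filter and the choice of 1 probe per gene.

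All cells came from 12 to 16 week old male C57BL/6 mice and were grown for 6 days in medium with 30% L929-conditioned medium, then rested overnight. Control IL-4 cells (arrays 9, 10 and 12) carried Hdac3 with loxP sites around exons 4 to 7 and no Cre. KO IL-4 cells (arrays 13, 14 and 15) carried the same floxed gene and Cre recombinase driven by the lysozyme M promoter, written LysM Cre+ in the labels, so Cre and the loss of HDAC3 always went together. Both groups received 10 ng/mL IL-4 for 24 h, and the vehicle groups received 0.1% bovine serum albumin for the same time. The promoter that drives Cre is active in myeloid cells, and deletion is limited to cells in which it has been on. Whether the 3 arrays of a group hold RNA from different mice or cultures is not given in the labels. The p-values therefore rest on the spread among these samples, part or all of which may be technical.

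HDAC3 removes acetyl groups from histones. It works as the enzyme of nuclear receptor corepressor complexes, which transcription factors and nuclear receptors bring to promoters and enhancers to hold genes down. IL-4 acts through its receptor and the transcription factor STAT6 and moves macrophages to the alternative state, with arginase 1, chitinase-like proteins and resistin-like molecule alpha among its best known products. Resting and activated macrophages also keep a low tonic output of type I interferon, read through a complex that holds STAT2 and IRF9, which sets the level of antiviral genes.

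Levels are log2 intensities relative to the array's 75th percentile, so that 0 is the level of the 75th percentile probe. Differences are log2 levels of KO IL-4 minus control IL-4, and a difference of 1 is 2-fold. For every gene the control IL-4 values are given in the order of arrays 9, 10 and 12 and the KO IL-4 values in the order of arrays 13, 14 and 15. A gene was called higher or lower at an adjusted p under 0.05 (limma, Benjamini-Hochberg over all 20906 genes). Between 61.1% and 82.8% of the probes' spots were well above background on the 6 arrays. KO IL-4 arrays were the most variable group, with a median SD over genes of 0.245 against 0.187 in control IL-4 and 0.149 to 0.182 in the vehicle groups, and the fit pools the spread of all 13 arrays. Each group sat at its own place on the slides, so array position and group cannot be told apart.

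Hdac3 itself was lower in the KO cells. It read -1.89, -2.28 and -1.80 on control arrays and -3.16, -3.35 and -4.02 on KO arrays. The groups did not overlap, and the difference of -1.52 (SE 0.233) passed the test at an adjusted p of 0.00397 (limma). A fit on the 6 IL-4 arrays alone gave the same difference with an adjusted p of 0.0813. The probe lies on chromosome 18 at 38096625 to 38096647 (mm9), was well above background on 2 of the 3 KO arrays. Whether it falls in exons 4 to 7 was not worked out here, and if it does not, it is no check of the deletion. Ncor1, a corepressor that holds HDAC3, showed no call and differed by 0.14 (adjusted p = 0.606, limma). Among 26 tested genes of these complexes and of the other deacetylases, Hdac3 fell and Tbl1xr1, a subunit of the same complexes, rose by 0.87 (1.78, 2.20 and 2.32 against 3.11, 2.93 and 2.88). Calls made up 7.7% of this list, beside 3.63% of all genes, but that share counts Hdac3, the targeted gene. Tbl1xr1 was the only other call.

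HDAC3 loss under IL-4 raised 424 genes and lowered 335. These were 2.03% and 1.6% of the genes tested, and together 759 genes or 3.63%. The median called difference was 0.72 among genes that rose and -0.84 among genes that fell. At least 2-fold differences were reached by 121 genes that rose and 120 that fell, and at least 4-fold differences by 19 and 21. For comparison, the 3 KO arrays all lay above or all below the 3 control arrays for 3729 genes, 17.8% of those tested, of which 1902 were higher. All 759 called genes were among them. Arrays 9 and 13 shared slide 1 and arrays 10 and 14 shared slide 2, and within-slide differences below are KO minus control of these pairs. In these bulk samples, fewer cells of a type and less RNA per cell cannot be told apart.

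The counts depended on single arrays and on the spread used. Without control IL-4 array 10, 242 genes rose and 219 fell. Leaving out control IL-4 array 12 gave 250 and 194, and leaving out KO IL-4 array 14 gave 262 and 282. A fit on the 6 IL-4 arrays alone, with their own spread, called 49 and 40. Of the 216 genes that the naming rule took, 131 were called. Of these 131, 39 kept their call in every alternative that gave them a value (26, or 25 for genes that a stricter filter removed). A wider count of 82 of the 131 also took in genes whose call was lost in the fit on the 6 arrays. For that count, losses on leaving out both arrays of lowest share well above background together were not considered. H2-Eb1 is in it and lost its call there as well. Where leaving out 1 array ended the call of a gene taken by the rule, the array is named beside it. Median scaling, averaging over probes, slide as a block and the fit on 6 arrays ended further calls, which are not listed gene by gene. Genes that the rule did not take were chosen after their values had been seen, and their calls were not followed through the alternatives. Calls by level were uneven: with genes split by mean level into 4 classes of equal size, 7.08% of the highest class were called and 1.07% of the lowest, where the median SE was 0.325 against 0.119.

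The largest rise was in Siglecf, which encodes a sialic acid-binding receptor best known from eosinophils and alveolar macrophages. It read -1.23, -1.88 and -1.32 on control arrays and 3.39, 4.11 and 2.70 on KO arrays, a difference of 4.88 (SE 0.388) or 29.4-fold (adjusted p = 0.000102, limma). All 3 KO arrays lay far above all controls, and the probe (chromosome 7, 50614417 to 50614476, mm9) was well above background on all 6. Il1rl2, a receptor for interleukin-36 cytokines, read -1.80, -2.17 and -1.65 against 1.62, 1.88 and 1.49, and rose by 3.54 (SE 0.296). Mmp13, an interstitial collagenase, read 0.29, -0.53 and 0.24 against 3.99, 4.28 and 3.10, and rose by 3.79 (SE 0.389). These KO values spread over more than 1 unit for Siglecf and Mmp13 and over a much narrower range for Il1rl2. Adgre5 (CD97), an adhesion receptor of leukocytes, read 1.52, 0.99 and 1.04 against 3.42, 4.06 and 3.48, and rose by 2.47. Tmem154, a membrane protein gene, read -4.09, -3.12 and -2.89 against -0.86, -0.72 and -1.38 and rose by 2.38, although its probe was well above background on 2 of 3 control arrays. Mamdc2 rose by 2.24, with 1 control array (12, at 0.13) close to the lowest KO array (15, at 1.01), and its call was lost without control IL-4 array 9, without control IL-4 array 10 and without KO IL-4 array 14 (adjusted p up to 0.0903 over all alternatives, limma).

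The largest falls were in genes of the Ly6 family, small surface proteins with a lipid anchor that mark haematopoietic and interferon-exposed cells. Ly6a (Sca-1) read 4.38, 4.84 and 4.27 on control arrays and 0.44, 0.44 and 0.97 on KO arrays, a difference of -3.88 (SE 0.353) or 14.7-fold (adjusted p = 0.000216, limma; probe on chromosome 15, 74825553 to 74825612, mm9). Ly6c2, a marker of inflammatory monocytes, read 3.99, 4.41 and 3.88 against 0.44, 0.71 and 0.95, and fell by 3.39. Ly6f read -0.53, 1.06 and 0.24 against -3.08, -2.57 and -2.62, and fell by 3.01. In all 3 genes the groups were separated by more than the range within either group. Ly6e and Ly6i fell by 1.17 and 1.39, and both calls were lost without control IL-4 array 10 (adjusted p up to 0.06 over all alternatives for each, limma). Of 12 tested Ly6 genes 5 fell and 0 rose (41.7% called, beside 3.63% of all genes), and 3 fell without control IL-4 array 10. The list's median difference was -0.96 beside -0.02 for all genes. Ly6 genes are close copies, and a probe of 1 can bind RNA of another. Cldn11, a tight junction claudin, read 2.04, 2.59 and 1.68 against -1.01, -1.19 and -0.01, and fell by 2.84. Fgl2, a fibrinogen-like protein, fell by 2.37 and was well above background on 1 of 3 KO arrays. Ppp1r3c, a glycogen-targeting phosphatase subunit, read -0.92, -2.09 and -2.40 against -4.32, -3.76 and -3.73, a difference of -2.14. Its call was lost when any of control IL-4 arrays 9 and 10 and KO IL-4 arrays 13, 14 and 15 was left out (adjusted p up to 0.103 over all alternatives, limma).

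**Figure D1:**
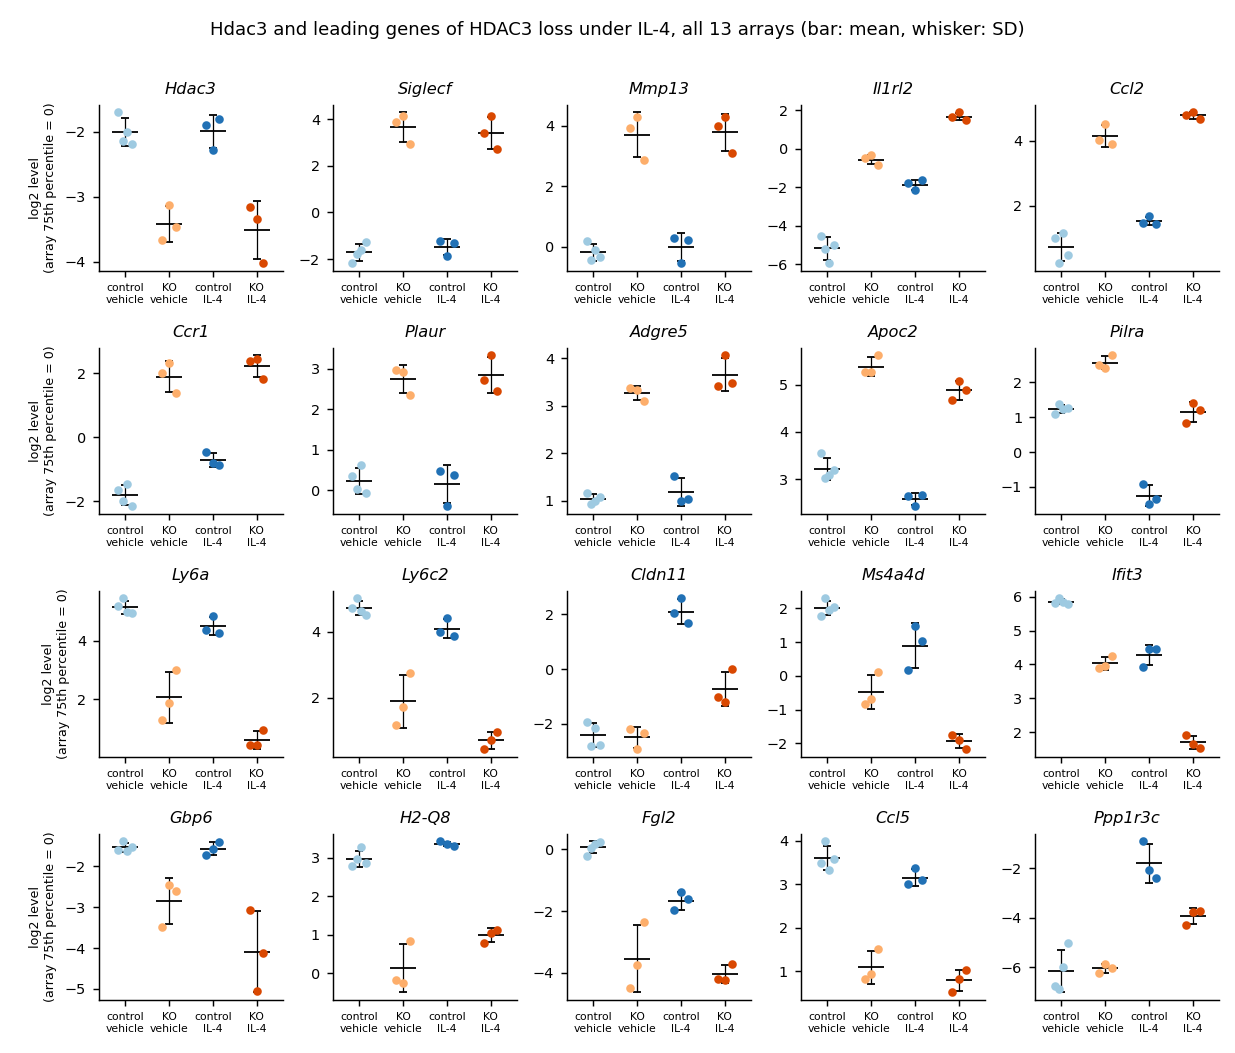
Log2 level of Hdac3 and 19 leading genes on all 13 arrays, with 0 at each array's 75th percentile. Points are arrays, long bars are group means and whiskers are SDs, and each panel has its own vertical axis. Siglecf, Mmp13 and Ccl2 are high in KO cells in both media, while Cldn11 and Ppp1r3c are near or below -2 in both genotypes in vehicle and differ between them under IL-4.

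Antiviral interferon-stimulated genes fell as a group. Of 51 tested, 39 fell and 1 rose (78.4% called, beside 3.63% of all genes). Of the 51, 45 were lower on every KO array than on every control array, as were 1827 of all 20906 genes. Their median difference was -0.84 (-0.63 between the arrays on slide 1 and -0.98 on slide 2), beside -0.02 for all genes. Summed over the list on the linear scale, the level ran from 857 to 908 times the array's 75th percentile on control arrays and from 543 to 569 on KO arrays. The count of those that fell was 25 without the 2 arrays of lowest share well above background (control vehicle 4 and KO IL-4 15) and 8 in the fit on the 6 IL-4 arrays, and leaving out 1 array at a time gave 28 to 40.

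The IFIT proteins bind viral RNA. Ifit3 read 3.93, 4.44 and 4.44 on control arrays and 1.91, 1.64 and 1.53 on KO arrays, and fell by 2.57 (SE 0.159, adjusted p = 2.86e-05, limma). Ifit1 read 5.67, 5.71 and 5.77 against 4.58, 4.25 and 4.24, and fell by 1.36. Ifit3b, a near copy of Ifit3, read 0.15, 1.09 and 0.85 against -1.16, -2.24 and -1.23, and fell by 2.24. The groups stood apart for all 3, with the least spread in Ifit1. Oasl1, an antiviral relative of the oligoadenylate synthetases, read 3.54, 3.54 and 3.72 against 1.80, 1.64 and 1.22, and fell by 2.04. Oasl2 fell by 1.14, from 5.81, 5.82 and 5.74 to 4.78, 4.55 and 4.63. Ifi44 fell by 2.31, from 3.03, 3.19 and 3.12 to 1.02, 0.49 and 0.89, while a second probe of it differed by -0.35. Xaf1, a pro-apoptotic interferon target, fell by 1.24.

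Among transcription factors that read interferon signals Stat2 and Irf9 fell. They were picked for their role after the values had been seen. Stat2 read -0.33, -0.25 and -0.35 against -1.01, -1.44 and -1.51, a difference of -1.01 (adjusted p = 0.00158, limma). Irf9, its DNA-binding partner, differed by -0.46 (2.70, 2.80 and 2.77 against 2.36, 2.31 and 2.22). Irf7, which amplifies interferon output, read -1.19, 0.02 and -0.34 against -1.75, -1.60 and -1.21, and its difference of -1.01 did not pass the test (adjusted p = 0.116, limma). Other members picked in the same way were Isg15, a ubiquitin-like modifier (0.48, 0.22 and 0.23 against -0.90, -1.12 and -0.60), Ifih1, a sensor of viral RNA that fell by 1.09, and Rsad2, the antiviral enzyme viperin, whose 3 probes ranged from -1.62 to -0.75. Ifi27 was the 1 member that rose (4.40, 3.84 and 4.12 against 4.66, 5.22 and 4.90, a difference of 0.81). It encodes a small mitochondrial protein, and it was also higher in KO cells in vehicle, by 1.11.

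The guanylate-binding proteins and immunity-related GTPases, which attack vacuoles holding pathogens, fell in part. Of 13 tested 6 fell and 0 rose (46.2% called, beside 3.63% of all genes), with a median of -0.94. The immunity-related GTPases made up 5 of the 6: Irgm1 fell by 1.19 (3.49, 3.60 and 3.60 against 2.54, 2.27 and 2.31), Igtp by 1.04 (4.29, 4.47 and 4.41 against 3.46, 3.29 and 3.28), Tgtp1 by 2.26, Iigp1 by 1.38 and Irgm2 by 0.97. Other probes of Irgm1 and Tgtp1 differed by as little as 0.01 and -0.24, and the call of Tgtp1 was lost when probes were averaged. Among guanylate-binding proteins Gbp6 fell by 2.52, with values on the KO arrays from -5.06 to -3.08 and only 1 of them well above background. The others differed by -0.25 (Gbp2), -0.11 (Gbp3), -0.02 (Gbp5), 0.34 (Gbp7), -0.65 (Gbp8) and -0.73 (Gbp9), and none passed the test. Ifi47, at -0.94, was uncalled as well (adjusted p = 0.375, limma).

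Promoters are printed for 6 of these genes because they hold a short sequence that was frequent among promoters of the antiviral and GTPase lists. RefSeq promoters (GRCm38.p6, from 250 bases before to 50 bases after the start) could be matched for 12182 genes tested, for 303 of those that rose and for 224 of those that fell. They were searched on both strands for GAAANNGAA, the core of the interferon-stimulated response element, whose copies can overlap each other. It was present in 7.77% of all 12182 promoters, 8.58% of those of genes that rose and 21.9% of those of genes that fell. It was present in 55.6% of 36 promoters of the antiviral list, 88.9% of 9 of the GTPase list and 14.4% of 188 promoters of genes that fell and are in neither of these lists nor in the MHC class I list. The sequences below run 5′ to 3′ on the gene's strand and end at the base before the RefSeq start, with the matches in capitals. These shares are descriptions and no test was made of them.

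Ifit3 (chr19:34583354-34583528, plus strand): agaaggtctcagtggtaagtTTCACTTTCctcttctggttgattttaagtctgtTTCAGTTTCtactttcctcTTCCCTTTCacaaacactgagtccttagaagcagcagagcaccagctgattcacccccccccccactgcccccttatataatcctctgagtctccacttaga
Ifit1 (chr19:34640760-34640888, plus strand): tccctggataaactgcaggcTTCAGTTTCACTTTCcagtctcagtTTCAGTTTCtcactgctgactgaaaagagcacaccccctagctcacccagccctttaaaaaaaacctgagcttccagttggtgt
Isg15 (chr4:156200819-156200938, minus strand): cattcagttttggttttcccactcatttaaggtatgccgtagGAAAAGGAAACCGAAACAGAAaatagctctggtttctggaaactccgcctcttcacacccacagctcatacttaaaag
Oas1a (chr5:120907526-120907645, minus strand): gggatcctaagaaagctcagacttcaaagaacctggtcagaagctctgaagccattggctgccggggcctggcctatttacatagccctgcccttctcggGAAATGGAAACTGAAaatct
Irgm1 (chr11:48871421-48871540, minus strand): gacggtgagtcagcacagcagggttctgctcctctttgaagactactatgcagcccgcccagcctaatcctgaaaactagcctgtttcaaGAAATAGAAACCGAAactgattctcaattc
Igtp (chr11:58199436-58199555, plus strand): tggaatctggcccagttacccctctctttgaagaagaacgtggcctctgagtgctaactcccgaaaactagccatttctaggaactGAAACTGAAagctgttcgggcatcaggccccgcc

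Ifit3, Ifit1 and Isg15 held 3 matches each, Oas1a and Irgm1 2 each and Igtp 1, and those of Oas1a, Irgm1 and Igtp lay closest to the start. Oas1a, an oligoadenylate synthetase that activates an RNA-cutting enzyme, fell by 0.80 (0.57, 0.75 and 0.78 against -0.18, 0.01 and -0.14). A match is not shown to be a binding site by these data.

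**Figure D2:**
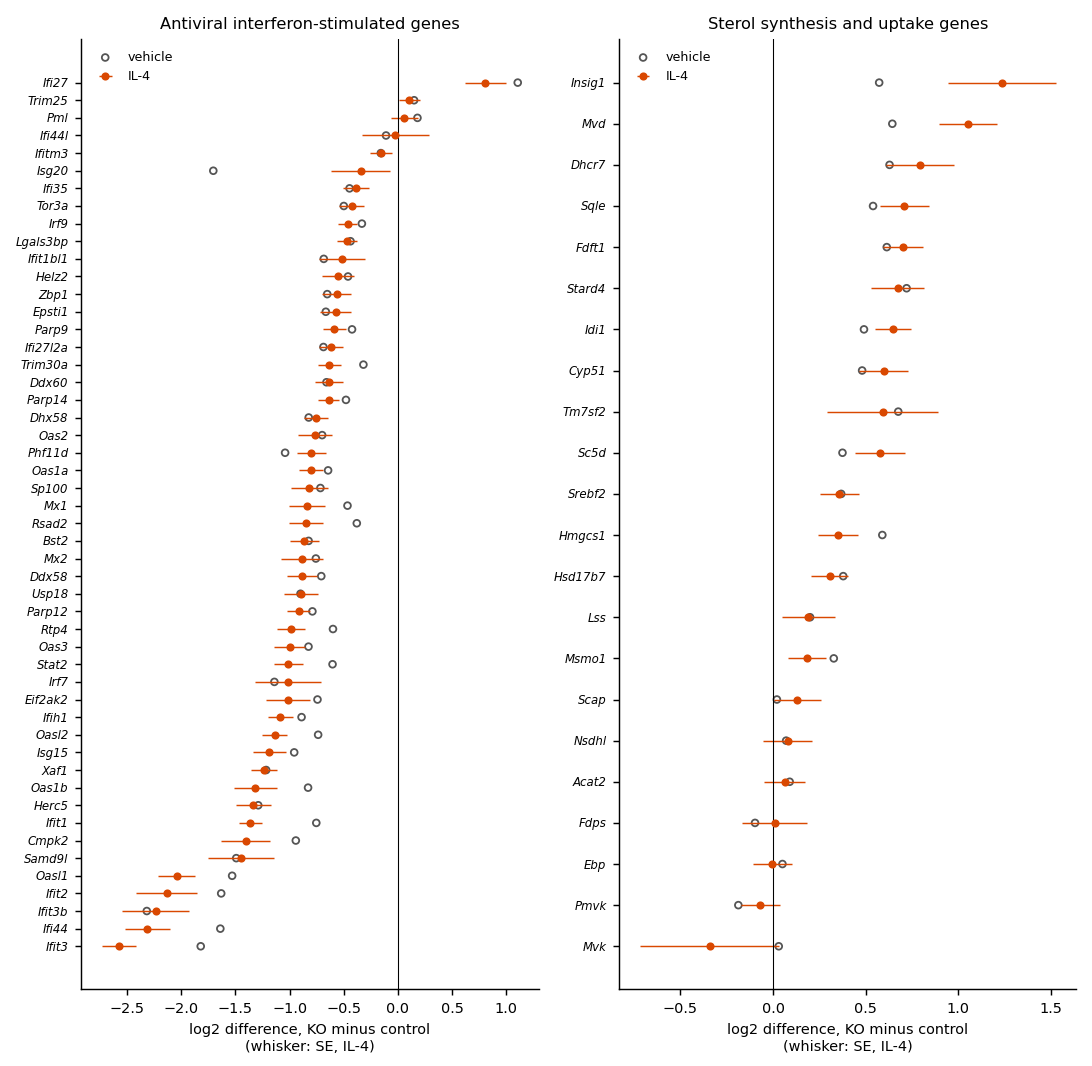
Difference in log2 level (KO minus control) of 50 antiviral interferon-stimulated genes and 22 sterol genes. Filled points are IL-4 with its SE as whisker, and open circles are vehicle without an error bar. Most antiviral genes lie left of 0 in both media, with Ifit3 farthest under IL-4, and most sterol genes lie right of 0.

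Antigen presentation genes fell in part. Class II molecules present peptides to helper T cells. Of 9 tested genes of this group 4 fell and 0 rose (44.4% called, beside 3.63% of all genes). H2-Ab1 read 4.80, 4.11 and 4.61 against 2.56, 3.15 and 2.48 and fell by 1.77, H2-Aa read 0.76, 0.20 and 0.78 against -1.14, -0.75 and -1.12 and fell by 1.58, and H2-Eb1 fell by 1.55. Cd74, the invariant chain that guards the class II groove, read 6.18, 5.51 and 5.94 against 4.16, 4.82 and 4.54 and fell by 1.37. That call was lost without control IL-4 array 9, control IL-4 array 12, KO IL-4 array 13 or KO IL-4 array 15, under median scaling and with slide as a block (adjusted p up to 0.0913 over all alternatives, limma). The peptide-loading genes H2-DMa, H2-DMb1 and H2-DMb2 differed by 0.29, 0.26 and 0.19, H2-Oa by 0.04 and Ciita, the master activator of class II genes, by -0.02, all uncalled. The median of the 9 genes was -0.02. On slide 2 the called chains differed less than on slide 1: H2-Ab1 by -0.95 against -2.24 and Cd74 by -0.69 against -2.01.

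Class I genes, which present peptides from inside the cell, had differences below 0 for all 23 tested, with a median of -0.38. Of the 23, 7 fell (30.4% called, beside 3.63% of all genes). The count moved from 3 to 8 as 1 array at a time was left out (3 without control IL-4 array 9, and 4 without control IL-4 arrays 10 or 12 or KO IL-4 arrays 13 or 15) and was 2 under median scaling. H2-Q8, a nonclassical molecule, read 3.42, 3.35 and 3.31 against 0.77, 1.05 and 1.13 and fell by 2.38 (SE 0.249, adjusted p = 0.00048, limma). H2-T22 fell by 1.0 (4.21, 4.08 and 4.10 against 3.19, 3.26 and 2.94) and the classical H2-K1 by 0.61 (6.30, 6.19 and 6.14 against 5.39, 5.75 and 5.63). In the same list the immunoproteasome subunit Psmb8 fell by 0.77, H2-M3 by 0.55 and the proteasome activator Psme1 by 0.46. The call of Psmb8 was lost without control IL-4 array 9 or 12 or KO IL-4 array 13 or 15, that of H2-M3 without control IL-4 array 9 or 10 or KO IL-4 array 13 or 14, and that of Psme1 without any 1 of the 13 arrays except KO IL-4 array 14. B2m, the light chain of every class I molecule, differed by -0.35 and H2-D1 by -0.21, neither called. Class I genes are near-identical in sequence, and signal of 1 can include its copies.

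MS4A membrane proteins, a family of tetraspan surface proteins, fell by cluster. Ms4a4d read 0.16, 1.49 and 1.04 against -1.74, -1.89 and -2.17 and fell by 2.83, Ms4a4c read 2.29, 3.49 and 3.01 against 0.47, 0.58 and 0.03 and fell by 2.57, and Ms4a4b read 0.59, 1.57 and 1.14 against -0.47, -1.03 and -0.56 and fell by 1.79. Control array 9 was the lowest control for all 3, and no KO array reached it. Second probes of Ms4a4d and Ms4a4c differed by -0.14 and -1.29. Ms4a6b fell by 1.07, a call lost without control IL-4 array 10 (adjusted p up to 0.0663 over all alternatives, limma). Ms4a6c fell by 0.75, a call lost in 16 of 26 alternatives, among them without any of the 6 IL-4 arrays, control vehicle arrays 1, 3 and 4 and KO vehicle array 6 (adjusted p up to 0.158, limma). Of 12 tested, 5 fell and 0 rose (41.7% called, beside 3.63% of all genes), and 3 fell without control IL-4 array 10. The median was -0.55.

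Chemokine genes, which draw leukocytes, changed in both directions. Ccl2, the main attractant of monocytes, read 1.47, 1.67 and 1.45 on control arrays and 4.78, 4.87 and 4.68 on KO arrays, and rose by 3.25 (SE 0.232, adjusted p = 6.46e-05, limma). Its neighbour Ccl7, which shares the receptor CCR2, read 1.57, 1.74 and 1.56 against 3.58, 4.07 and 3.67, and rose by 2.15. Both had narrow ranges within either group. Ccl24, an eotaxin that attracts eosinophils, read 0.56, -0.60 and 0.30 against 1.81, 2.13 and 1.75, and rose by 1.81. Ccl3 and Ccl4, ligands that CCR1 binds, rose by 0.74 and 0.57, and Cxcl14 by 0.93, whose call was lost without control IL-4 array 12. In the other direction Ccl5, a T cell attractant and interferon target, read 3.00, 3.37 and 3.09 against 0.52, 0.82 and 1.02, and fell by 2.36. Ccl8 fell by 0.88. Of 22 tested ligands 6 rose and 2 fell (36.4% called, beside 3.63% of all genes), with a median of 0.16. The count that fell was 1 without control IL-4 array 10 or 12 or KO IL-4 array 13 or 15.

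Among 12 tested chemokine receptors 2 rose and 2 fell (33.3% called, beside 3.63% of all genes). Ccr1, which binds CCL3 and CCL7, read -0.45, -0.79 and -0.86 against 2.38, 2.45 and 1.83, and rose by 2.92 (SE 0.262). Ccr2, the CCL2 receptor of monocytes, read 2.31, 2.51 and 2.21 against 1.41, 0.82 and 1.52, and fell by 1.09. So the ligand Ccl2 was higher and its receptor lower on every KO array. Ccrl2, a receptor that presents chemerin without signalling, rose by 1.15, a call lost without control IL-4 array 9 or 10.

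Among enzymes and other proteins that remodel the matrix, several rose. Of 34 tested matrix genes 7 rose and 0 fell (20.6% called, beside 3.63% of all genes). The median was 0.25 (0.28 on slide 1 and 0.42 on slide 2). Besides Mmp13, Mmp12, the macrophage elastase, read 1.68, 0.67 and 1.85 against 3.86, 4.03 and 3.03, and rose by 2.24 (SE 0.39). The urokinase receptor gene Plaur read 0.48, -0.39 and 0.37 against 2.73, 3.33 and 2.46, and rose by 2.69, and the urokinase gene Plau, whose product activates plasminogen, read -1.74, -1.56 and -1.60 against -0.36, 0.18 and -0.08, and rose by 1.55. A second probe of Plau differed by -0.57, and a second probe of Plaur by 1.65. Spp1, the secreted glycoprotein osteopontin, rose by 1.04 (4.85, 4.61 and 4.84 against 5.80, 5.74 and 5.89) and the growth factor gene Vegfa by 0.67, with all 4 of its probes between 0.65 and 0.74. Mmp9, a gelatinase, differed by 1.35 (adjusted p = 0.0922, limma), and its groups overlapped.

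Sterol synthesis and uptake genes rose without exception among those called. Cholesterol is made from acetyl-CoA by a chain of enzymes and taken up with lipoproteins, both under the factor SREBP2. Of 25 tested, 11 rose and 0 fell (44.0% called, beside 3.63% of all genes). Of the 25, 16 were higher on every KO array than on every control array, as were 1902 of all 20906 genes. The median was 0.37 (0.35 on slide 1 and 0.51 on slide 2), and the summed linear level ran from 188 to 214 on control and from 240 to 287 on KO arrays. The count was 5 to 10 with 1 array left out (5 without control IL-4 array 10, and 7 without any of control IL-4 arrays 9 and 12 and KO IL-4 arrays 14 and 15), 7 under median scaling and 2 in the fit on the 6 IL-4 arrays. Of the enzymes, Mvd rose by 1.05 (SE 0.155, adjusted p = 0.00314, limma; -1.14, -1.18 and -1.09 against -0.41, 0.34 and -0.18), Fdft1 by 0.70 and Idi1 by 0.65 (1.13, 1.20 and 1.24 against 1.67, 1.88 and 1.96). The Idi1 probe is placed by the files on chromosome 2 (mm9) while RefSeq has the gene on chromosome 13, and the call was lost when probes were averaged (adjusted p = 0.0878, limma). Sqle rose by 0.71, lost without control IL-4 array 10. Srebf2, which encodes SREBP2, differed by 0.36 and was uncalled (adjusted p = 0.103, limma).

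A promoter of the sterol list is shown for Mvd. The CCAAT box, searched as CCAAT on both strands, was present in 83.3% of 18 promoters of the list against 38.6% of all, 32.3% of those of genes that rose and 33.9% of those of genes that fell. The sterol element TCACNCCAC was present in 5.56% of the 18 and 1.13% of all. Capitals mark CCAAT or its reverse complement.

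Mvd (chr8:122443423-122443542, minus strand): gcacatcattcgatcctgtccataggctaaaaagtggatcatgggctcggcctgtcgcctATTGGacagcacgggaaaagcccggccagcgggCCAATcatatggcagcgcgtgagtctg

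Some genes of lipid efflux and lipoproteins rose. The LXR receptors turn on cholesterol efflux. Of 17 tested genes of this list 4 rose and 0 fell (23.5% called, beside 3.63% of all genes), with a median of 0.32. Apoc2, the cofactor of lipoprotein lipase, read 2.64, 2.43 and 2.66 against 4.68, 5.07 and 4.88, and rose by 2.30 (SE 0.161, adjusted p = 6.46e-05, limma). Apoc1 read -2.18, -1.44 and -1.67 against -0.12, 0.61 and 0.21, and rose by 2.0. The cholesterol exporter gene Abca1 rose by 0.86 (3.62, 3.66 and 3.78 against 4.60, 4.69 and 4.35). Scd2, a fatty acid desaturase also on the list of fatty acid synthesis, rose by 1.30, lost without control IL-4 array 10 or KO IL-4 array 14. Abcg1, another exporter, differed by -0.11 and Nr1h3, which encodes LXR alpha, by -0.37, neither called. In the 16 tested genes of fatty acid synthesis Scd2 and the elongase gene Elovl6 rose (by 0.64 for the latter) and Me1, the malic enzyme, fell by 1.03. Calls made up 18.8% of these 16. The call of Elovl6 was lost without any of the 6 IL-4 arrays, control vehicle array 3 or any KO vehicle array, and that of Me1 without control IL-4 arrays 9 or 12 or KO IL-4 arrays 13 or 15. In the 29 of fatty acid uptake, storage and oxidation 6.9% were called, beside 3.63% of all genes. The fatty acid carriers Fabp5 and Fabp3 moved in opposite directions, Fabp5 rising by 1.16 (1.91, 1.74 and 1.77 against 2.90, 3.15 and 2.85) and Fabp3 falling by 0.97 (1.43, 1.07 and 1.60 against 0.25, 0.49 and 0.46).

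Genes of alternative activation, the programme IL-4 induces, did not move together. Of 37 tested 5 rose, 4 fell and 28 were uncalled (24.3% called, beside 3.63% of all genes), and the median was 0.11. Arg1, an arginase and a standard marker of the state, read 1.39, 1.41 and 0.94 on control arrays and 2.71, 3.00 and 2.60 on KO arrays, and rose by 1.53 (SE 0.174, adjusted p = 0.000695, limma). Chil4, a chitinase-like protein, read 0.24, -0.78 and 0.08 against 1.97, 2.65 and 1.44, and rose by 2.17. Il4ra, the chain of the receptor that binds IL-4, read -0.45, -0.91 and -0.49 against 0.29, 0.97 and 0.48, and rose by 1.19. For all 3 the lowest KO array lay above the highest control. Retnla, the resistin-like molecule, read 5.01, 4.52 and 4.79 against 5.65, 5.97 and 5.75 and rose by 1.02 at an adjusted p of 0.0439 (limma), and its call was lost in 15 of 26 alternatives, among them leaving out control vehicle 4, any KO vehicle array or any of the 6 IL-4 arrays (adjusted p up to 0.165). The fifth gene that rose was Ccl24, described above. The count of 4 that fell was 1 without control IL-4 array 10 and 2 without control IL-4 array 9 or KO IL-4 array 13.

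Flt1, a receptor for vascular endothelial growth factor, read 2.88, 3.05 and 3.04 against 0.89, 0.30 and 1.68, and fell by 2.03 (SE 0.257). Its 5 probes ranged from -2.03 to -0.29. Pdcd1lg2, the checkpoint ligand PD-L2, read 0.28, 0.42 and 0.20 against -0.28, -0.43 and -0.29, and fell by 0.63, lost without control IL-4 array 10 (adjusted p up to 0.131 over all alternatives, limma). Socs1, an inhibitor of JAK kinases that IL-4 itself induces, read 0.26, 0.25 and 0.13 against -0.69, -0.75 and -0.59, and fell by 0.89, although its groups lay far apart on these 6 arrays: the call was lost without any 1 of them (adjusted p up to 0.0989 over all alternatives, limma). Ch25h, which makes 25-hydroxycholesterol, fell by 1.21 (-1.42, -1.62 and -1.92 against -2.92, -3.19 and -2.47).

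Several defining genes of the state were uncalled. Mrc1, the mannose receptor, read 5.0, 5.25 and 4.98 against 5.13, 5.15 and 5.19. The transcription factor Irf4 read 2.13, 2.26 and 2.49 against 1.87, 2.20 and 2.10, and Pparg read 3.85, 3.61 and 3.67 against 2.96, 3.65 and 3.17. The groups overlapped for these 3 genes. They did not for the chitinase-like gene Chil3 (6.19, 5.10 and 5.84 against 7.06, 7.30 and 6.86, adjusted p = 0.16), the STAT target Cish (-0.06, -0.69 and -0.66 against 0.53, 1.03 and 0.39, adjusted p = 0.154) and the lectin Clec10a (4.34, 4.30 and 4.12 against 3.36, 3.79 and 3.48, adjusted p = 0.0699, all limma). Stat6 differed by 0.31 (adjusted p = 0.244, limma). A missed threshold does not show that these levels were equal.

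**Figure D3:**
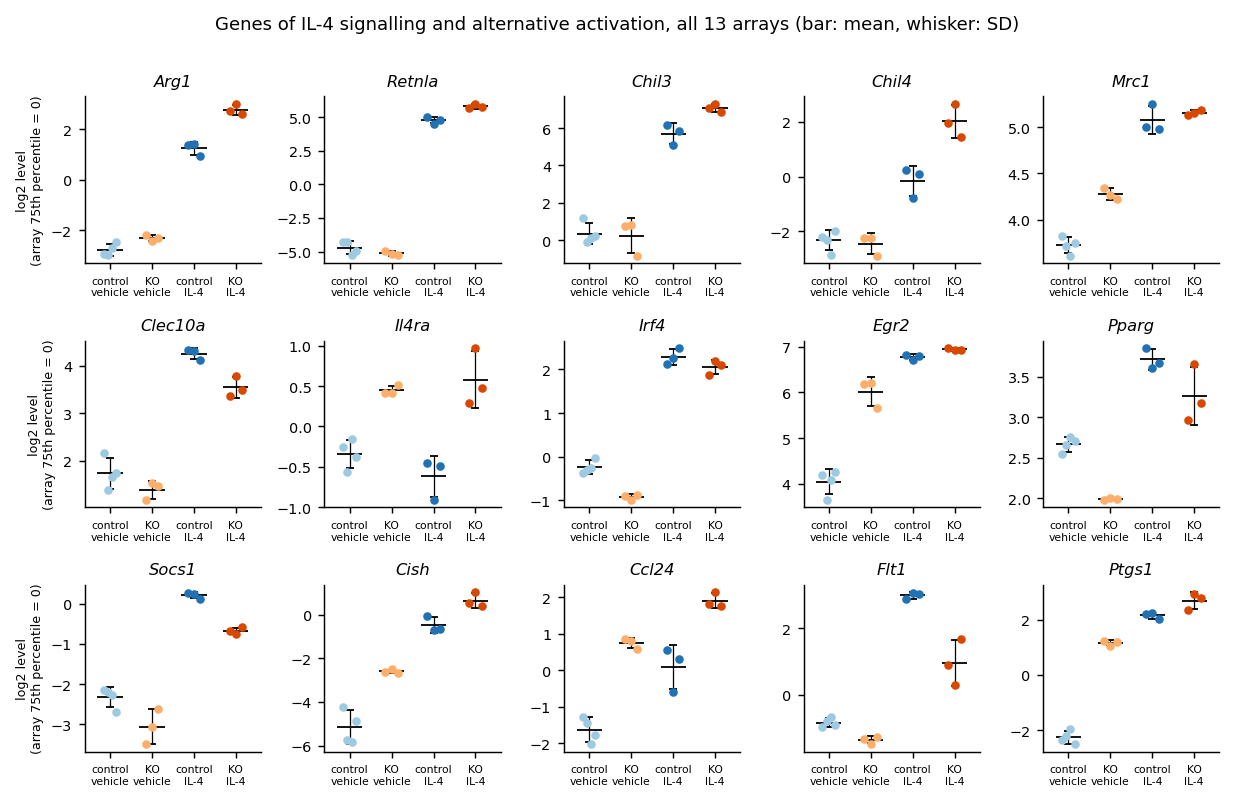
Log2 level of 15 genes of IL-4 signalling and alternative activation on all 13 arrays, with 0 at each array's 75th percentile. Points are arrays, long bars means and whiskers SDs, with a vertical axis for each gene. Arg1, Chil4 and Il4ra sit higher and Flt1 and Socs1 lower on all KO IL-4 arrays than on the control IL-4 arrays, and Mrc1 overlaps.

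Receptors of the macrophage surface changed in both directions. Besides Siglecf, the paired receptor genes Pilra (-0.91, -1.48 and -1.36 against 0.83, 1.41 and 1.22), Pilrb1 (0.64, 0.71 and 0.49 against 2.08, 2.80 and 2.43) and Pilrb2 (-4.56, -3.89 and -4.21 against -2.43, -1.87 and -1.95) rose by 2.40, by 1.82 and by 2.14. Pilrb2 was well above background on 1 of 3 control arrays. Pilra encodes an inhibitory receptor and the Pilrb genes activating ones, and their probes may share signal. Clec4n (Dectin-2), a receptor for fungal mannans, rose by 1.26 (-0.70, -0.91 and -1.08 against 0.18, 0.54 and 0.36) and Cd300a, an inhibitory receptor for membrane lipids, by 0.71. Siglec1 (sialoadhesin) fell by 1.23 (2.58, 3.00 and 2.75 against 1.39, 1.61 and 1.63), with a second probe at 0.20, and Clec4b1 by 0.79. Of 36 such receptors tested, 6 rose and 4 fell (27.8% called, beside 3.63% of all genes). The count that fell was 2 without control IL-4 array 12 or KO IL-4 array 15.

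Of 35 tested genes of macrophage identity 8 rose and 5 fell (37.1% called, beside 3.63% of all genes), with a median of 0.12. The groups overlapped for Adgre1 (F4/80) and Cd68, which were chosen from this list after their values had been seen. Adgre1 read 6.97, 6.98 and 6.86 against 6.83, 6.95 and 7.00, and Cd68 read 6.00, 5.89 and 5.93 against 5.77, 6.08 and 5.88. The integrin chain gene Itgam (CD11b) read 1.65, 1.23 and 1.57 against 3.33, 3.62 and 3.04 and rose by 1.85 (SE 0.183). Lyz1, a lysozyme gene beside the Lyz2 locus that carries Cre, rose by 0.77 (5.11, 5.03 and 5.07 against 5.68, 6.04 and 5.79), and Lyz2 differed by 0.30 (adjusted p = 0.11, limma). A second probe of Lyz2 differed by 0.93, and the mean over its probes gave 0.616, which passed the test (adjusted p = 0.00224, limma). Cd14, a lipopolysaccharide co-receptor, rose by 0.89 (2.08, 2.15 and 2.11 against 2.77, 3.25 and 2.97). Axl, a receptor for dying cells, fell by 0.97 (1.59, 1.74 and 1.52 against 0.49, 0.61 and 0.83), and its relative Mertk rose by 0.74 (-0.50, -0.84 and -0.22 against 0.12, 0.30 and 0.24). The call of Mertk was lost in 3 of 26 alternatives, among them array weights and the fit on the 6 IL-4 arrays (adjusted p up to 0.198, limma). Tlr3, a sensor of double-stranded RNA, fell by 0.94. The count of identity genes that fell was 2 without control IL-4 array 10 and 3 without control IL-4 array 12, KO IL-4 array 13 or KO IL-4 array 15.

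In the list of interleukins and their receptors 4 of 29 rose and 1 fell (17.2% called, beside 3.63% of all genes). Besides Il1rl2 and Il4ra, Il1r1, the receptor for interleukin 1, rose by 1.04 (-2.07, -1.60 and -1.88 against -0.77, -0.60 and -1.06), and Ifngr1 rose by 0.48, a call lost without control IL-4 arrays 9 or 12 or KO IL-4 arrays 14 or 15. Il18bp, a decoy for interleukin 18, fell by 1.35 (1.28, 1.24 and 1.02 against -0.35, 0.19 and -0.37). Classical inflammatory genes showed few calls: of 26 tested Cd14 rose and 0 fell, while Tnf differed by -0.28, Il1b by -0.23, Il6 by -0.05 and Ptgs2 by -0.71, all uncalled. The share called in that list, 1 of 26, was near the 3.63% of all genes.

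In lysosome and phagocytosis genes 7 of 46 rose and Axl fell (17.4% called, beside 3.63% of all genes). Ctsl, the protease cathepsin L, led with 1.33 (4.95, 4.56 and 4.73 against 5.96, 6.34 and 5.93), and the scavenger receptor gene Scarb1 rose by 0.66. The count that rose was 2 under median scaling and 3 or 4 without KO vehicle array 5, control IL-4 array 10, control IL-4 array 12, KO IL-4 array 14 or KO IL-4 array 15. In iron, heme and antioxidant genes 4 of 28 rose (14.3% called, beside 3.63% of all genes). That count was 2 without KO vehicle array 5, control IL-4 array 10, control IL-4 array 12 or KO IL-4 array 14. Among those that rose were Trf, the iron carrier transferrin, by 1.77 (1.98, 1.79 and 1.80 against 3.42, 4.21 and 3.23) and the peroxidase gene Prdx1 by 1.54 (4.83, 4.18 and 4.64 against 6.00, 6.41 and 5.87). Complement and coagulation genes gave 4 that rose and 1 that fell among 25: Plaur, Plau and properdin (Cfp, by 0.98) were among those that rose, and factor B (Cfb, by 0.98) fell, the last call lost without control IL-4 array 10, control IL-4 array 12, KO IL-4 array 14 or KO IL-4 array 15.

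Among eicosanoid genes 3 of 20 rose and 1 fell, and 5 rose without KO IL-4 array 13. The prostaglandin receptor gene Ptger2 rose by 1.18 (2.68, 2.41 and 2.72 against 3.78, 3.96 and 3.61) and Pla2g7, a lipase that clears platelet-activating factor, by 1.16 (1.08, 0.97 and 1.38 against 2.19, 2.71 and 2.01). Of 21 arginine and polyamine genes 3 rose and 1 fell (19.0% called). Slc7a1, a carrier that brings arginine into the cell, fell by 0.54 (3.04, 3.02 and 3.03 against 2.46, 2.42 and 2.59). Paox and Sat1, enzymes of polyamine breakdown, rose by 0.65 and 0.51. The osteoclast and cell fusion list had 2 of 25 higher (Ccr1 and Cd44) and the adhesion list 2 of 26 higher (Itgam and Cd44) and Cldn11 lower. Calls made up 8.0% and 11.5% of these lists, beside 3.63% of all genes. Cd44, the hyaluronan receptor, rose by 0.67 (5.25, 5.38 and 5.39 against 6.06, 6.06 and 5.89).

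Among 46 myeloid transcription factors 4 were called (8.7%, beside 3.63% of all genes): Bach1, a repressor of heme-responsive genes, rose by 1.0 (-2.40, -2.39 and -2.14 against -1.35, -1.14 and -1.44), Fos rose by 0.73 (3.37, 3.41 and 3.26 against 4.04, 4.28 and 3.91) and Irf8 by 0.64, while Egr1 fell by 0.54 (0.47, 0.50 and 0.57 against 0.01, 0.02 and -0.12). The call of Irf8 was lost without control IL-4 array 10, control IL-4 array 12, KO IL-4 array 14 or KO IL-4 array 15. The count of factors that rose was 5 without KO vehicle array 7. Of 22 nuclear receptors Rxra alone passed the test (4.5% of the list), at 0.67, and its call was lost without the same 4 arrays. In the list of stress genes 1 of 19 rose (Fos) and 2 fell (Egr1 and Ddit4, by 1.03). Calls made up 15.8% of that list, and its summed level ran from 321 to 368 on control and from 330 to 385 on KO arrays.

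Genes of central metabolism gave no call. None of 29 glycolysis and pentose phosphate genes and none of 37 oxidative phosphorylation genes passed the limma test, with medians of 0.04 and 0.06, and differences from -0.36 to 0.59 and from -0.23 to 0.34. Of 37 cell cycle genes 4 were called (10.8%, beside 3.63% of all genes). Cdc6 and Cdk6 rose by 1.13 and 0.66 and the cyclin genes Ccnd1 and Ccnd2 fell by 1.19 and 0.63. Ccnd1 read 3.96, 4.06 and 3.92 against 2.60, 2.67 and 3.11. Another of the 3 probes of Ccnd2 differed by 0.13, and its call was lost without control IL-4 array 9, KO IL-4 array 13 or KO IL-4 array 15.

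**Figure D4:**
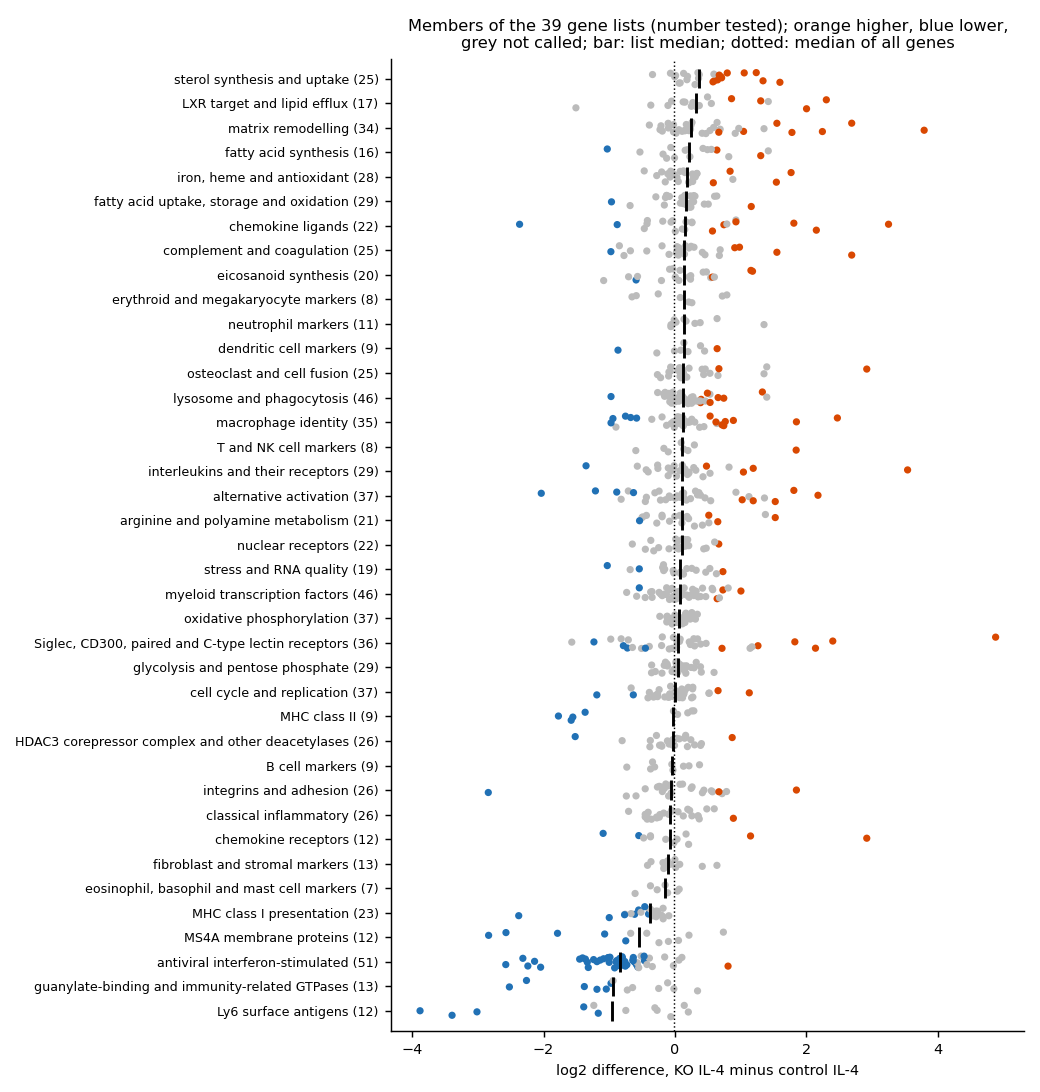
Difference in log2 level (KO IL-4 minus control IL-4) of every tested member of 39 gene lists, ordered by median. Points are genes, orange where called higher, blue where called lower and grey where uncalled, upright bars are list medians and the dotted line is the median of all genes. Ly6, GTPase, antiviral and MS4A genes form the low end, and sterol genes have the highest median, 0.37.

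Markers of other cells that a marrow culture can hold were examined next, beside the 3.63% of all genes called. For T and NK cells 8 of 18 markers had a usable probe, 1 was called (12.5%), and the summed linear level was 1.70 to 2.19 on control and 2.08 to 2.26 on KO arrays. The call was Klrb1c (-4.93, -4.57 and -4.40 against -2.74, -2.08 and -3.55), whose probe was well above background on 0 of 3 control arrays and whose second probe differed by 0.21. It was lost in 12 of 25 alternatives, among them without control vehicle arrays 2 or 3, any control IL-4 array or KO IL-4 arrays 13 or 14. For B cells (9 of 13 markers), neutrophils (11 of 17) and fibroblasts (13 of 15) none was called by limma, and the summed levels were 4.20 to 4.63 against 3.63 to 4.67, 8.59 to 16.6 against 10.6 to 18.4 and 20.2 to 20.9 against 20.4 to 21.3. Dendritic cell markers (9 of 13) had Irf8 higher and Bst2 lower (22.2% called), with sums of 30.6 to 34.1 against 31.4 to 38.0.

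Eosinophil, basophil and mast cell markers, beside the rise of Siglecf and Ccl24, had 7 of 15 usable probes and 0 called by limma (adjusted p 0.146 or more). Epx and Prg2, granule proteins of eosinophils, differed by -0.61 and 0.04, and the list's summed level was 27.6 to 36.5 on control and 23.2 to 25.8 on KO arrays, most of it from Ccr3. Kit, Gata1, Gata2 and the mast cell proteases Mcpt4, Mcpt8 and Tpsab1 were among the 8 without a usable probe. Erythroid and megakaryocyte markers (8 of 13) had 0 calls, but their summed level was 109 to 115 on control and 129 to 136 on KO arrays, most of it from Tfrc, the transferrin receptor (6.38, 6.49 and 6.48 against 6.66, 6.65 and 6.67), and Pf4 (4.73, 4.45 and 4.09 against 4.56, 4.90 and 4.58), both uncalled. The part of these cells in the results was not tested.

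Genes that changed were often neighbours. Of the 422 genes that rose and have coordinates, 83 (19.7%) had another gene that rose within 100 kb, while 6.27% of all genes had such a neighbour. Of the 332 that fell, 79 (23.8%) had a neighbour that fell, against 4.75% of all genes. These clusters often hold gene copies, and some probes with placeholder names may measure the same transcript as their neighbour, which raises such shares. Over chromosomes, the share called ran from 2.34% on chromosome 13 to 5.34% on chromosome 19, with 0 of 9 genes on the Y.

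Several clusters held blocks of called genes (mm9 coordinates from the first to the last called probe). A block was a run of 3 or more called genes, each starting within 100 kb of the one before. Tested genes were counted only between the ends, which are called by construction, so the counts are not shares of whole gene families. All 7 tested genes within the Schlafen block on chromosome 11 (82778192 to 83003033) fell, and so did all 4 within the Ifi200 block on chromosome 1 (175522791 to 175679484). At the Ifit cluster on chromosome 19 (34650244 to 34723855) 5 of 7 fell, at the Ms4a cluster on the same chromosome (11500754 to 11629316) 5 of 7, and at the Oas cluster on chromosome 5 (121180434 to 121348407) 4 of 7. The 3 tested genes at Pilra, Pilrb1 and Pilrb2 on chromosome 5 (138264800 to 138307390) and the 3 at Apoc2, Apoc1 and Apoe on chromosome 7 (20257027 to 20281791) all rose. Apoe rose by 0.49 (7.71, 7.59 and 7.55 against 8.09, 8.05 and 8.19). At Ccl2, Ccl7 and Ccl8 on chromosome 11 (81850650 to 81930167) the first 2 rose and Ccl8 fell, and a nearby block of Ccl3, Ccl4, Wfdc17 and Wfdc18 (83461358 to 83524810) rose entirely. These blocks were picked out after their values had been seen.

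Near the loci that the model alters, shares were close to the background of 3.63%. Within 5 Mb of the Lyz2 probe 3 of 63 genes (4.76%) were called: Hmga2 fell by 1.09 (2.67, 2.50 and 2.82 against 1.70, 1.27 and 1.75), Lyz1 rose, and Rassf3 rose by 0.56, a call lost without KO vehicle array 5, any control IL-4 array or KO IL-4 arrays 13 or 14. Within 5 Mb of the Hdac3 probe 5 of 123 (4.07%) were called, with Hdac3 itself left out of that number: Cd14, Egr1, Stard4 (0.67), Reep5 (0.51) and Tmco6 (0.64). The call of Stard4 was lost without control IL-4 arrays 9 or 10 or KO IL-4 arrays 14 or 15, that of Reep5 without control IL-4 array 12, and that of Tmco6 without any 1 of the 13 arrays except control vehicle array 2 and control IL-4 array 12.

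HDAC3 loss in vehicle shared no arrays with the comparison under IL-4, though both used the same slides and the same spread per gene. In vehicle 977 genes (4.67%) were called, 506 higher and 471 lower. In both media 510 genes were called in the same direction, 266 higher and 244 lower, and 0 in opposite directions. They made up 67.2% of the IL-4 calls and 52.2% of the vehicle calls. Across all 20906 genes the differences correlated at r = 0.557, given as a description since genes are not independent. Side by side, Siglecf differed by 4.88 under IL-4 and 5.36 in vehicle, Ccl2 by 3.25 and 3.42, Ly6a by -3.88 and -3.08, and Ifit3 by -2.57 and -1.82. The antiviral list had medians of -0.84 and -0.72 and the sterol list of 0.37 and 0.38.

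A further 249 genes were called under IL-4 and not in vehicle, 158 higher and 91 lower. This does not show that they differ between media: 225 had the same sign in vehicle, and 112 had an unadjusted interaction p under 0.05. The interaction, the difference between both differences, was called for 1 gene of 20906 (0.00478%), and 811 had an unadjusted p under 0.05 (limma). That gene was Ptgs1, cyclooxygenase 1, which makes prostaglandins. In vehicle it read -2.36, -2.20, -1.95 and -2.50 on control arrays and 1.22, 1.05 and 1.19 on KO arrays. Under IL-4 it read 2.21, 2.22 and 2.01 against 2.35, 2.92 and 2.79. The KO arrays thus lay 3.41 above control in vehicle and 0.54 under IL-4 (adjusted p = 0.129, limma), an interaction of -2.86 (SE 0.230, adjusted p = 0.00116, limma).

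Other genes with small interaction p-values did not pass the adjustment here, but some did under alternatives. Egr2 was called under quantile normalization, normexp, the authors' values, the filter to probes well above background on all IL-4 arrays, a trended robust variance and array weights, and without KO vehicle array 7. Cldn11 was called under normexp and the trended variance, Ccl4 under the trended variance and array weights, and Ccl3 and Pilrb1 under the trended variance. Egr2, a transcription factor of the alternative state, differed by 0.17 under IL-4 (6.82, 6.70 and 6.79 against 6.97, 6.94 and 6.92) and by 1.97 in vehicle (limma's interaction gave an unadjusted p of 8.52e-06 and an adjusted p of 0.0891). Other genes had the larger difference under IL-4. Cldn11 differed by -2.84 and -0.08 (unadjusted p = 0.000128), Chil4 by 2.17 and -0.12 (0.000518), Pilrb1 by 1.82 and 0.39 (0.000186), Flt1 by -2.03 and -0.52 (0.00114) and Arg1 by 1.53 and 0.45 (0.00081), with the limma p of the interaction in brackets. Ccl3 and Ccl4 were called higher under IL-4 and differed by -0.18 and -0.34 in vehicle, with interaction p-values of 0.000341 and 7.6e-05 (limma, unadjusted). The adjusted interaction p-values of these 7 genes, limma, were 0.297 or more.

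**Figure D5:**
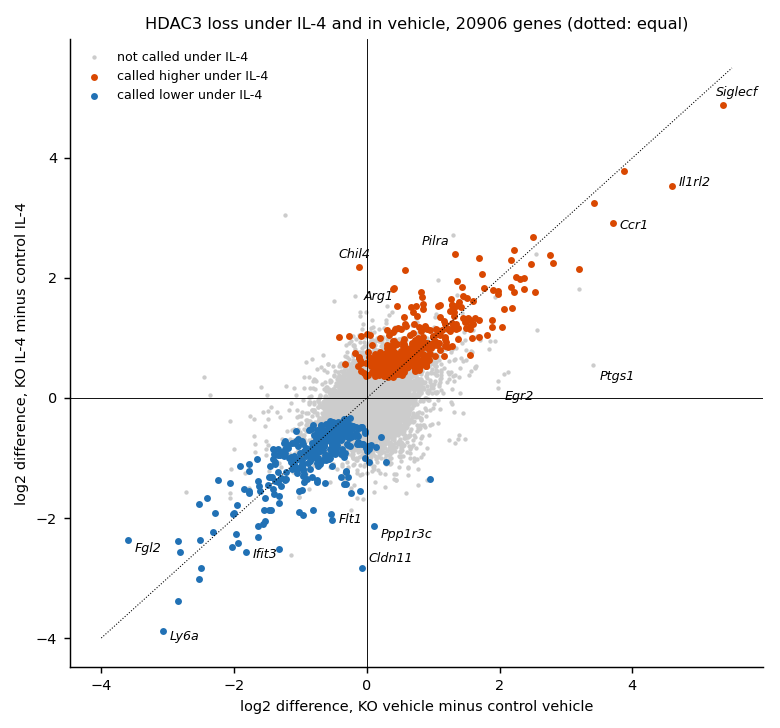
HDAC3 loss under IL-4 (vertical axis) against HDAC3 loss in vehicle (horizontal axis), as log2 differences of 20906 genes, each point a gene and the dotted line marking equal differences. Genes called under IL-4 are coloured by direction. Most coloured points lie along the line, Ptgs1 and Egr2 lie far to the right near a height of 0, and Cldn11, Ppp1r3c and Chil4 lie near the vertical line at 0.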

How the data were processed

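RNA of 13 macrophage samples was measured on single-colour Agilent arrays. The deposited scanner files hold the intensity of each spot, background-subtracted by Feature Extraction (version 10.5.1.1 per the file headers, 9.53 per the submitters' processing notes). A deposited table of the authors' normalized intensities, put on the log2 scale here, served as an alternative. Its normalization is not given in the sources used here beyond limma being named.

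The processed intensity was averaged over spots of a probe without control spots or outliers, divided by the array's 75th percentile and put on the log2 scale. Of 41174 probes 41073 were used, and 25039 were named through the accession in RefSeq tables. A probe was kept if, in 1 group or more, each array had it well above background, and the brightest was used per gene. limma (3.58.1, R 4.3.3; lmFit and eBayes) fitted all 13 arrays in 4 groups with 9 residual degrees of freedom and Benjamini-Hochberg adjustment. On simulated data it recovered 67% of 100 genes changed by a log2 of 1 and 87% of 100 changed by a log2 of 2, with 5 false calls among 159. The simulated arrays were independent, with normal values and 1 spread per gene for all groups, as the fit assumes. KO IL-4 arrays were more variable than the others, so these rates cannot be carried over to the real arrays. The number of arrays limits the precision.

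Genes were named by rule: the 15 largest called differences each way, up to 6 called members per list, every member of lists with at most 12 tested, a fixed set that includes Hdac3 and the leading genes of alternative activation, called genes within 5 Mb of Lyz2 or Hdac3, and called interactions. The members, lists and tests were chosen with earlier results of these data known. Alternatives were other scalings, background corrections, probe rules, variance models, slide as a block, the 6 IL-4 arrays alone and leaving out each array. Some genes are not reported here.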

Additional observations from a re-analysis of the deposited data

Results flagged for a closer look

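Ptgs1 was the 1 gene whose response to HDAC3 loss was called different between media: its difference under IL-4 minus its difference in vehicle was -2.863 (limma, adjusted p = 0.00116). It was called in every alternative in which the interaction was fitted.

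Among the 4 control vehicle arrays, array 4 had a mean signal of negative control spots of 131.27, while the other 3 lay between 56.25 and 68.87. That array enters the comparison under IL-4 through the pooled spread, the probe filter and the choice of the brightest probe, and not through the group means. Of such tests 51 were made on the control vehicle arrays, and chance flags about 1 in 20.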

How the results depend on the processing

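None of the 131 called genes that were followed changed direction under any alternative. The genes that rose and fell numbered 217 and 205 under median scaling, 701 and 704 when arrays were weighted by quality, and 49 and 40 in the fit on the 6 IL-4 arrays, where Hdac3 stayed at -1.52 with an adjusted p of 0.0813 (limma). Normexp background correction gave 504 genes that fell, and leaving out control vehicle 4 and KO IL-4 15 together, an alternative chosen after seeing the data, gave 194. Without the filter on dim probes, 293 of 28257 genes rose and 242 fell. Leaving out 1 array at a time gave 242 to 394 that rose and 194 to 330 that fell. The share of calls that were higher ran from 48.2% to 60.2%, against 55.9%. The interaction was called for 2 genes under quantile normalization, 2 with the authors' values, 2 with probes well above background on all IL-4 arrays, 7 with normexp, 10 with a trended robust variance, 4 with array weights and 1 to 4 with 1 array left out. No paired analysis was possible because the array numbers are not shared between groups. Matching by slide was possible for part of the arrays, and with slide as a fixed block 301 rose and 275 fell. Genes of low signal had the largest errors, which limits what could be called among them. The cause of these shifts was not tested.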

Other observations

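Of the 759 called genes 586 were in none of the gene lists, and the following were chosen after their values had been seen. The smallest adjusted p of all genes, 1.13e-05 (limma), belonged to P2ry14, a receptor for UDP-sugars, which read 1.48, 1.60 and 1.59 on control IL-4 arrays and -0.28, -0.33 and -0.48 on KO IL-4 arrays, and fell by 1.92 (SE 0.101). It differed by -2.0 in vehicle. Ndst1, an enzyme of heparan sulfate synthesis, read 3.03, 3.08 and 2.99 against 4.66, 4.66 and 4.61 and rose by 1.61.

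Other genes outside the lists that rose were Mfge8, a bridge between dying cells and phagocytes (by 1.98), Il12rb1, a chain of the interleukin 12 receptor (by 2.01), Alas1, which starts heme synthesis (by 1.77), and Entpd1, an ectoenzyme that removes extracellular ATP (by 1.25). Genes outside the lists that fell were Ube2l6, the conjugating enzyme of ISG15 (by 1.54), Cst7, a cystatin (by 1.87), Cd69, an early activation marker of leukocytes (by 1.47), Jak3, a kinase of cytokine receptors (by 0.96), and Bcl2, which blocks cell death (by 0.77). The Schlafen genes of the block described above fell by 1.86 (Slfn4), 1.60 (Slfn1), 0.71 (Slfn8), 0.65 (Slfn9), 0.63 (Slfn2) and 0.52 (Slfn10).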
